A study of Mus musculus with 10 samples.

Results

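The genes described here are 9 genes of purine breakdown and nucleoside transport that are known from enterocytes and the tip of the intestinal villus: Enpp3, Entpd8, Nt5e, Ada, Slc28a1, Slc28a2, Slc29a1, Pnp and Xdh. They were taken by name from the 54838 genes listed for each animal, and all 9 were among the 14719 genes with enough counts to be tested. The measurement was bulk RNA sequencing of jejunal crypts from 5 WT and 5 Arid3a cKO mice, with 1 library per mouse. The cKO mice carried 2 floxed Arid3a alleles and VillinCre-ERT2, a recombinase that the Villin promoter expresses in intestinal epithelial cells and that tamoxifen activates. The controls are labelled WT with no further allele given. Tamoxifen was given to both genotypes, on 3 days in a row, and the mice were culled 1 month after the first dose, so the drug is common to all 10 animals. Age and sex are not given in the labels. Before crypt release the villi were removed by scraping. The animal identifiers in the labels have different stems in the 2 genotypes, and the labels do not say what a stem stands for.

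Purines enter the gut lumen from food, bacteria and shed cells, mostly as nucleotides. On the enterocyte surface, ecto-enzymes remove phosphates step by step until a nucleoside such as adenosine is left, and carriers in the brush border take nucleosides into the cell. Adenosine deaminase turns adenosine into inosine. Inside the cell, purine nucleoside phosphorylase splits off the sugar and xanthine oxidoreductase oxidises hypoxanthine and xanthine to uric acid. Adenosine is also a signal that restrains inflammation, so this chain sets how long the signal lasts. At the villus tip, which enterocytes reach at the end of their lives, the chain is known to be strongly expressed. These samples came from crypts, so a position along the villus was not measured.

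Crypts of Arid3a cKO mice carried more mRNA for 5 of the 9 genes. Enpp3 was 5.37-fold higher, Slc28a1 3.27-fold, Xdh 3.22-fold, Ada 2.22-fold and Entpd8 1.33-fold, while Slc29a1, the equilibrative nucleoside carrier, was 1.39-fold lower. Nt5e, Slc28a2 and Pnp did not pass the test. That is 5 of 9 members called higher and 1 called lower at an adjusted p below 0.05 in edgeR's quasi-likelihood test. Over all tested genes, 2298 (15.6%) were called higher and 1869 (12.7%) lower. With each mouse left out in turn, Enpp3, Xdh and Slc29a1 kept their call in all 10 fits. Entpd8 kept its call in 8 of these fits, Slc28a1 in 5 and Ada in 3. In Enpp3, Slc28a1 and Xdh, each cKO mouse lay above each WT mouse, which held for 12.0% of all tested genes. In Slc29a1 each cKO mouse lay below each WT mouse, as in 7.62% of tested genes. The members were listed with earlier results of these data known, so these counts describe the group and are not independent evidence of its direction.

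**Figure D1:**
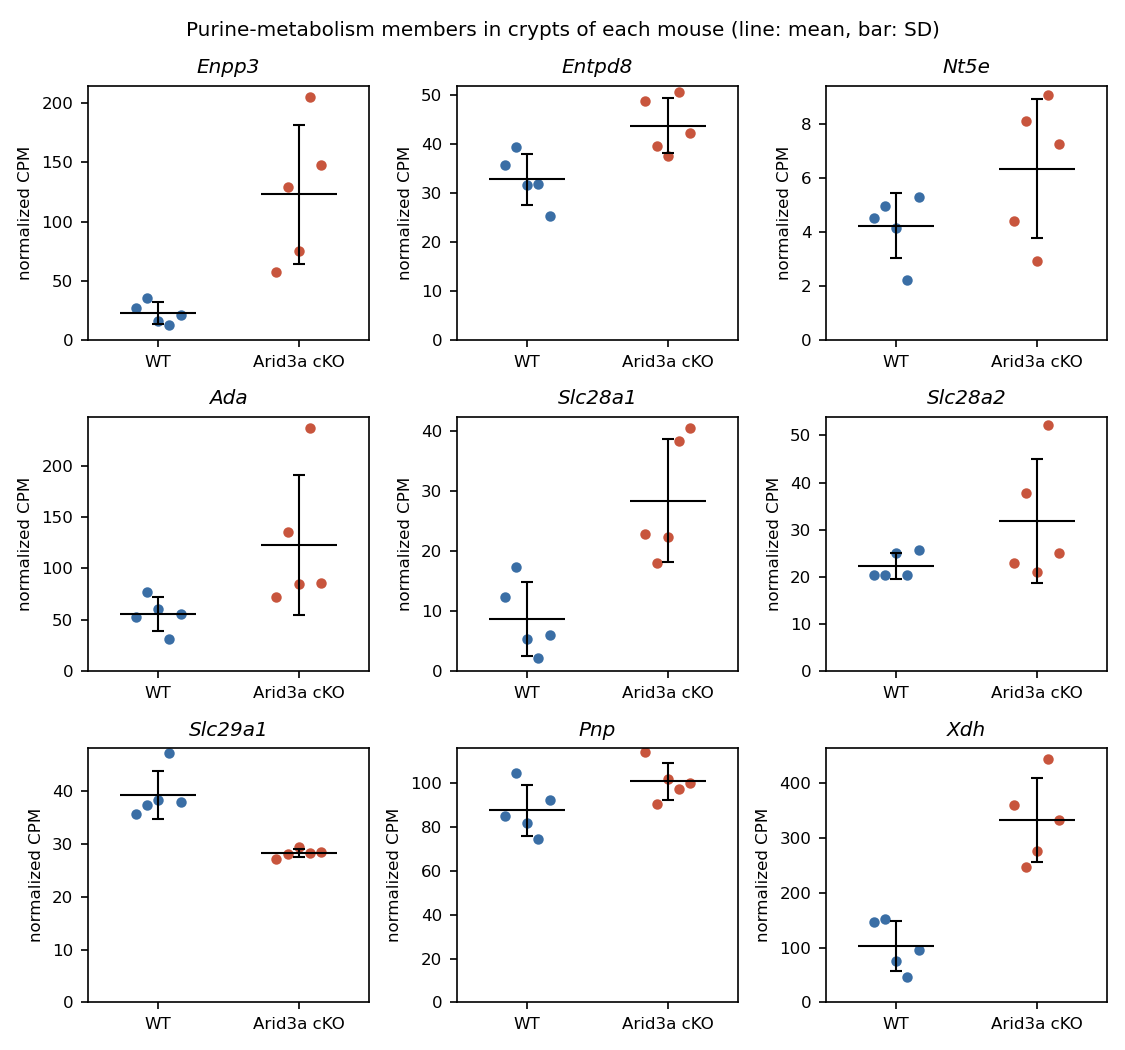
Normalized CPM (on TMM-scaled library sizes) of the 9 members in each mouse, on linear axes from 0, with WT mice in blue and Arid3a cKO mice in red. Horizontal lines mark the mean and bars the SD of 5 mice; the groups are apart in Enpp3, Slc28a1, Xdh and Slc29a1 and overlap in the other 5 panels.

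Levels below are CPM, the counts of a gene scaled to a common library size, with library sizes corrected by TMM, which adjusts for differences in RNA composition, and values of 5 mice are listed in the order of replicates 1 to 5. Log2 fold changes are cKO minus WT with their standard error (SE). The libraries held 27050455 to 28152743 expected counts in WT and 28314069 to 31053622 in cKO, and the totals of the 2 genotypes did not overlap (exact permutation, two-sided, p = 0.00794, which is the lowest possible for 5 mice against 5). Arid3a, the deleted gene, was at 1.91, 2.06, 2.75, 2.68 and 2.69 CPM in WT and 0.303, 0.516, 0.489, 0.883 and 1.17 CPM in cKO (log2 fold change -1.84, SE 0.32, adjusted p = 0.00204). Each cKO mouse had less Arid3a mRNA than each WT mouse.

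The crypts were not alike in their mRNA for markers of differentiated cells, and this moved with the genotype. All 11 of 11 mature enterocyte markers were higher in cKO (median log2 fold change 1.55), among them Mgam at 1.16, Lct at 1.92 and Apoa4 at 2.06. Their summed TPM (a level scaled to transcript length and library) ranged from 2058 to 9027 in WT and from 9117 to 17287 in cKO. WT replicates 4 and 3 had the lowest sums, at 2058 and 2981. Of the 7 stem and proliferating cell markers 4 were lower, as were 4 of the 5 Paneth cell markers. For comparison with the marker counts, 15.6% of all tested genes were called higher and 12.7% lower. In cKO replicate 4 the summed TPM of 9 stromal, endothelial and muscle markers was 51.0, against 4.09 to 12.6 in the other cKO mice and 6.09 to 43.7 in WT, and its summed TPM of 6 macrophage and myeloid markers was 97.8, against 10.5 to 29.0 and 25.3 to 71.8. The 5 B and plasma cell markers all had negative log2 fold changes (median -1.95), with 1 of them called, and their summed TPM did not overlap between genotypes, at 17.3 to 50.3 in WT and 5.79 to 13.8 in cKO. None of the 7 T cell markers was called, with summed TPM of 91.9 to 341 in WT and 136 to 359 in cKO. In bulk crypts, more cells of a type and more RNA per cell cannot be told apart.

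Enpp3 is an ecto-nucleotide pyrophosphatase that cleaves ATP and other nucleotides at the cell surface, and it lies on the minus strand at chr10:24772406-24842823 (GRCm38). It had 27.3, 36.2, 16.7, 13.2 and 21.2 CPM in WT and 58.0, 129, 75.6, 205 and 148 CPM in cKO. The lowest cKO mouse exceeded the highest WT mouse, and the cKO mice spanned a 3.53-fold range among themselves. The log2 fold change was 2.43 (SE 0.41, adjusted p = 0.00366), the largest among the members, and adjusted p stayed at or below 0.0291 in the 12 other settings with all mice and at or below 0.0116 when any 1 mouse was left out. Without WT replicates 3 and 4 and cKO replicate 4 it was 1.86 (adjusted p = 0.0346).

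Entpd8, an ecto-nucleoside triphosphate diphosphohydrolase that strips phosphates from ATP and ADP, lies at chr2:25080304-25085716 on the plus strand. It was at 35.8, 39.3, 31.6, 31.8 and 25.4 CPM in WT and 48.8, 39.6, 37.6, 50.5 and 42.2 CPM in cKO. Only cKO replicate 3 fell below the highest WT mouse. It differed by 0.42 on the log2 scale (SE 0.12, adjusted p = 0.0210), which was lost without cKO replicate 1 (0.38, adjusted p = 0.0535) or cKO replicate 4 (0.36, adjusted p = 0.0510). On deposited TPM with 0.5 added it was 0.26 (adjusted p = 0.185). Exons of Noxa1, on the opposite strand, overlap those of Entpd8, and Noxa1 was itself lower in cKO (log2 fold change -0.90, SE 0.24, adjusted p = 0.0207). Since the strand setting of the counting is not given in the sources used here, reads of the 2 genes may not be fully told apart, and Noxa1 was looked up after the values were seen.

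Nt5e, also known as CD73, makes adenosine from AMP and was the member with the fewest transcripts. It lies at chr9:88327197-88372092 on the plus strand. WT mice had 4.52, 4.99, 4.17, 2.24 and 5.31 CPM and cKO mice 4.41, 8.10, 2.93, 9.07 and 7.26 CPM, so 3 cKO mice were above the WT range and 2 within it. The log2 fold change of 0.58 (SE 0.31, adjusted p = 0.181) did not pass, and neither did any of the 22 other settings. Nt5e gave no call, although its log2 fold change was larger than that of the called Entpd8 (0.42, SE 0.12). The missing call therefore does not show that this step was unchanged.

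Ada, adenosine deaminase, lies on the minus strand at chr2:163726584-163750239. Its values were 52.6, 77.5, 60.8, 31.4 and 55.4 CPM in WT and 72.4, 135, 85.0, 237 and 86.0 CPM in cKO. The groups overlapped at WT replicate 2 and cKO replicate 1, and cKO replicate 4 stood well above all other mice. Its log2 fold change was 1.15 (SE 0.37) with an adjusted p of 0.0439, close to the threshold of 0.05. It dropped to 0.77 (adjusted p = 0.0600) without cKO replicate 4 and to 1.00 (adjusted p = 0.0859) without WT replicate 4. Leaving out cKO replicate 2 or 5 or WT replicate 1, 3 or 5 also ended the call, with adjusted p between 0.0545 and 0.0820, while the direction did not change.

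**Figure D2:**
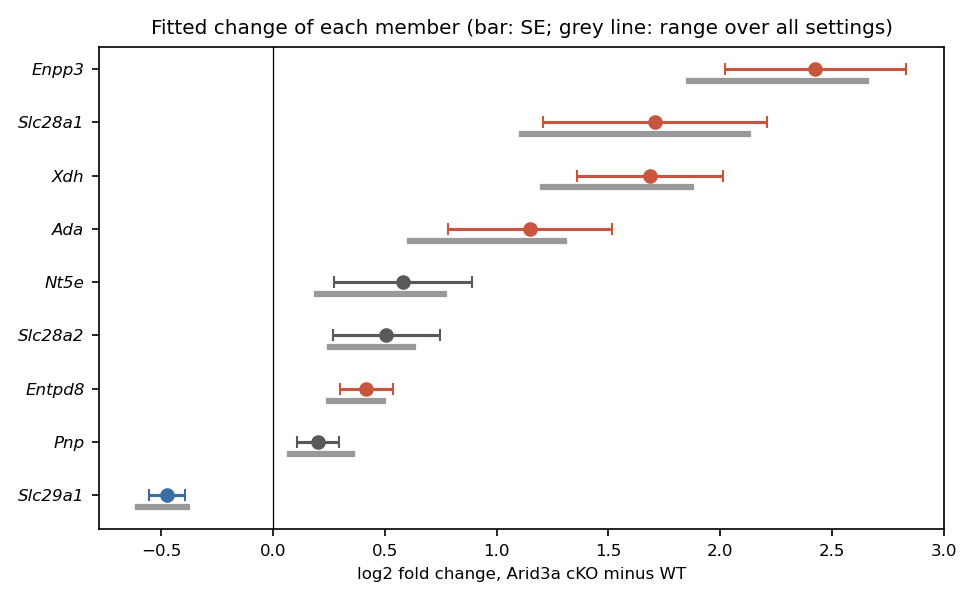
Fitted log2 fold change (cKO minus WT) of each member with its SE, in red where called higher, blue where called lower and grey where not called. The thick grey line under each point spans the values under all settings tried, among them each mouse left out in turn; no line crosses 0.

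Of the 3 nucleoside carriers, 1 rose, 1 fell and 1 was not called. Slc28a1 and Slc28a2 are concentrative, driven by sodium, and Slc29a1 is equilibrative. Slc28a1, the carrier CNT1, which prefers pyrimidine nucleosides and also binds adenosine, lies at chr7:81114799-81170416 on the plus strand. WT mice had 12.4, 17.4, 5.36, 2.28 and 6.03 CPM and cKO mice 22.9, 17.9, 22.4, 38.4 and 40.4 CPM. All cKO mice were above all WT mice, though cKO replicate 2 and WT replicate 2 differed little, and the WT mice spanned a 7.64-fold range, the widest of any member. Its log2 fold change was 1.71 (SE 0.50, adjusted p = 0.0327). The call was lost without cKO replicate 1, 4 or 5 or WT replicate 3 or 5, with log2 fold changes of 1.54 to 1.78 and adjusted p of 0.0532 to 0.0779.

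Slc28a2, the purine-preferring carrier CNT2, lies at chr2:122426477-122461137 on the plus strand. It was at 20.3, 20.3, 25.1, 20.4 and 25.7 CPM in WT and 23.0, 37.7, 21.0, 52.2 and 25.03 CPM in cKO. Replicates 2 and 4 of the cKO mice were above the WT range and the other 3 lay within it. A log2 fold change of 0.51 (SE 0.24, adjusted p = 0.138) was not called, and it was at 0.26 to 0.63 when 1 mouse was left out. Of the 100-base words of its transcripts, 17.98% also occur in Gm14085, the neighbouring paralog, but that gene was estimated at no more than 6.58 counts in any library.

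Slc29a1, the equilibrative carrier ENT1 that lets nucleosides pass down their gradient, lies on the minus strand at chr17:45585200-45599606 and was the 1 member that fell. WT mice had 35.7, 37.4, 38.3, 47.1 and 37.8 CPM, and cKO mice had 27.04, 28.1, 29.3, 28.3 and 28.5 CPM. The cKO values spanned a 1.09-fold range, the tightest of any member, and lay wholly below WT. The log2 fold change was -0.47 (SE 0.08, adjusted p = 0.00181). WT replicate 4, which had the lowest enterocyte marker sum, had the highest Slc29a1, and without WT replicates 3 and 4 the log2 fold change was -0.39 (adjusted p = 0.00767).

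Promoters were read from RefSeq for GRCm38.p6 for 8 of the 9 members; Xdh had no entry in the table. Each window holds 250 bases before and 50 after a start site, and Slc29a1 has 8 of them. Those of the member that rose most, of the purine carrier that was not called, and of the member that fell are shown in gene orientation, from the start of the window, trimmed so that no more than 10 bases lie in an annotated exon. The Enpp3 window lies inside the annotated span of the gene, which on the minus strand begins at position 24842823. It is therefore not at the outermost start of the gene. Capitals mark exact matches to motifs searched on both strands.
Enpp3, minus strand, chr10:24836216-24836445: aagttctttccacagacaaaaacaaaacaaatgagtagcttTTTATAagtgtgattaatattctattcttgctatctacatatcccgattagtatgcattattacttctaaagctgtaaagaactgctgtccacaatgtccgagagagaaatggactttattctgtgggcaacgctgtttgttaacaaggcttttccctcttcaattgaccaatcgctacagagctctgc
Slc28a2, plus strand, chr2:122426185-122426444: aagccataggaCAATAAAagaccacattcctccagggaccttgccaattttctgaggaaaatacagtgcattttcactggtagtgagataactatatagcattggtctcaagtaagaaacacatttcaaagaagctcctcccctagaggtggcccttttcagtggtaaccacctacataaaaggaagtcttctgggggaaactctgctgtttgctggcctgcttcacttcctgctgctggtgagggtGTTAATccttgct
Slc29a1, minus strand, most upstream window, chr17:45599609-45599868: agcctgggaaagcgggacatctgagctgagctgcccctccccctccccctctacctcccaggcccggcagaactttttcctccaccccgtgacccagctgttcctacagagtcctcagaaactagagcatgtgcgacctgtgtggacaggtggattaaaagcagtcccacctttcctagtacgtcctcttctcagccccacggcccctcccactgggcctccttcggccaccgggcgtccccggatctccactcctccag
The capitals in Slc28a2 are an HNF1 half-site, GTTAAT, at position -3 counted from the start site, and the reverse complement of a CDX site, TTTATTG, at position -239. In Enpp3 they are the reverse complement of a TATA box, TATAAA, at position -209. The matches do not overlap each other. Over all 32851 windows of the table, 7.1% hold GTTAAT, 4.6% hold TTTATTG and 13.6% hold TATAAA. The windows of Ada, Nt5e, Slc28a1, Pnp and Entpd8 and all 8 of Slc29a1 held none of these letters. A second CDX form, TTTATGG (2.75% of windows), and 3 HNF4 sites, namely CAAAGTCCA, then CAAAGTTCA and also CAAAGGTCA (1.33% with any of them), were in no member's window.

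Inside the cell, Pnp, purine nucleoside phosphorylase, was the most abundant member per length in WT. It lies at chr14:50931082-50965237 on the plus strand. Its CPM was 85.0, 105, 81.7, 74.3 and 92.3 in WT and 114, 90.7, 102, 97.5 and 99.8 in cKO, with 4 cKO mice inside the WT range. Its log2 fold change of 0.20 (SE 0.09, adjusted p = 0.122) was not called, except without WT replicate 2 (0.28, adjusted p = 0.0248). Its paralog Pnp2, within the same locus at chr14:50955992-50964749, had 34.9, 40.8, 25.7, 23.1 and 29.1 CPM in WT and 57.2, 47.6, 49.0, 44.5 and 53.7 CPM in cKO. Every cKO mouse was above every WT mouse in Pnp2 (log2 fold change 0.71, SE 0.14, adjusted p = 0.00431). With the counts of Pnp and Pnp2 added, the log2 fold change was 0.35 (adjusted p = 0.0213), a sum that includes the rise of Pnp2 itself. How reads were divided between the 2 copies was not varied. A further gene model over the same exons, Gm49342, took 839 to 1448 counts per library (log2 fold change 0.31, adjusted p = 0.0735), and 15.8% of the 100-base words in Pnp are shared with Gm49342 or Pnp2. On the opposite strand Gm38316 overlaps Pnp exons and took 49.2 to 145 counts per library.

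Xdh, xanthine oxidoreductase, catalyses the last steps to uric acid and lies on the minus strand at chr17:73883895-73950196. WT mice had 147, 152, 75.7, 45.4 and 95.8 CPM, and cKO mice had 360, 248, 276, 444 and 332 CPM. All cKO mice were well above all WT mice, and WT replicates 3 and 4 were the lowest of all. The log2 fold change was 1.69 (SE 0.33, adjusted p = 0.00603), the call held when any 1 mouse was left out, and without WT replicates 3 and 4 it was 1.34 (adjusted p = 0.00933). Gda, guanine deaminase, which feeds xanthine to Xdh from guanine, had 168, 235, 67.0, 43.4 and 96.8 CPM in WT and 493, 496, 378, 650 and 605 CPM in cKO. As in Xdh, no cKO mouse came within the WT range (log2 fold change 2.10, SE 0.44, adjusted p = 0.00872). Uox, urate oxidase, which degrades uric acid mainly in liver, was not called (0.05, adjusted p = 0.922).

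Levels were compared between genes on the deposited TPM. In WT the order of the means was Pnp at 69.8 ± 7.59 (SD, n = 5), Ada at 44.9 ± 12.2, Xdh at 39.5 ± 18.1, Entpd8 at 30.9 ± 4.78, Slc29a1 at 30.3 ± 5.45, Enpp3 at 11.8 ± 4.31, Slc28a2 at 10.6 ± 1.12, Slc28a1 at 4.04 ± 2.80 and Nt5e at 1.40 ± 0.340. Neighbours in this order had overlapping ranges except at Pnp over Ada, Slc29a1 over Enpp3 and Slc28a2 over Slc28a1. In cKO Xdh came first at 122 ± 32.9, followed by Ada at 94.98 ± 56.9, Pnp at 75.2 ± 8.32, Enpp3 at 62.5 ± 31.1, Entpd8 at 37.1 ± 6.68, Slc29a1 at 21.1 ± 1.62, Slc28a2 at 14.1 ± 6.26, Slc28a1 at 12.5 ± 4.75 and Nt5e at 1.99 ± 0.845. There each of the first 4 overlapped the next in its range, and the ranges parted at Entpd8 over Slc29a1 and Slc28a1 over Nt5e. The 9 members together came to 202 to 298 TPM in WT and 348 to 663 TPM in cKO.

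**Figure D3:**
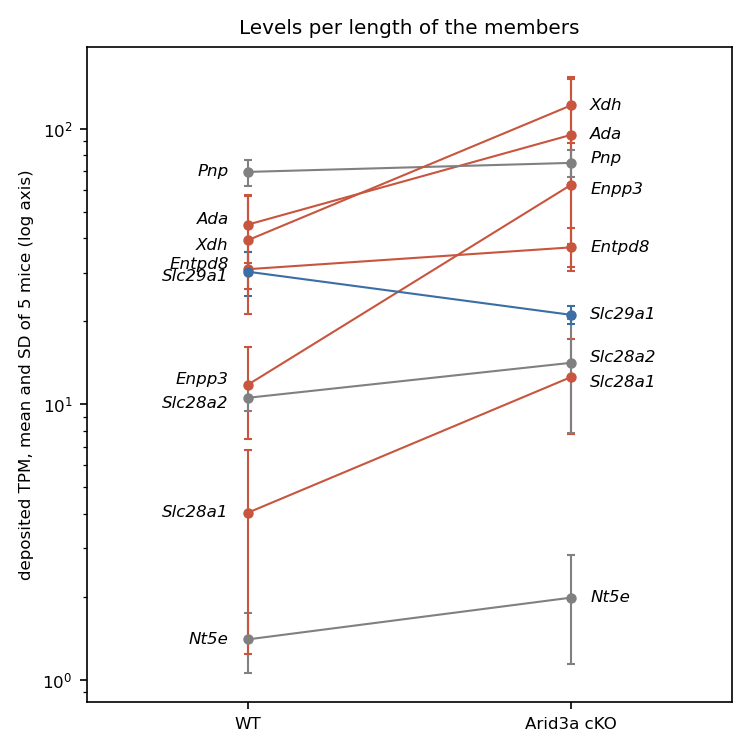
Mean deposited TPM of each member with the SD of 5 mice, on a log axis, WT on the left and Arid3a cKO on the right; red lines join members called higher, blue the one called lower, grey those not called. Enpp3 moved from 11.8 to 62.5 TPM and Xdh from 39.5 to 122 TPM, while Pnp stayed between 69.8 and 75.2 TPM.

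How enzymes that compete or act in sequence stood to each other within a mouse was compared as the log2 ratio of their CPM, each with 0.5 added, by two-sided exact permutation tests with Benjamini-Hochberg adjustment over 6 ratios. Ada and Adk, adenosine kinase, compete for adenosine. Their ratio was -0.46 ± 0.47 (SD, n = 5) in WT and 0.56 ± 0.78 in cKO, a difference of 1.02 (exact p = 0.0159, adjusted p = 0.0190). WT replicate 2, at 0.06, overlapped the lowest cKO mouse at -0.04, and without WT replicate 1 or WT replicate 4 the difference of 1.01 or 0.83 no longer passed (adjusted p = 0.0571 and 0.0762). Adk itself stayed at 71.4 to 74.3 CPM in WT and 65.4 to 79.9 CPM in cKO. The ratio of Ada to Adk therefore largely restates the change of Ada and is not separate evidence. Xdh and Hprt, the salvage enzyme, compete for hypoxanthine. Their ratio went from -0.04 ± 0.71 to 1.66 ± 0.41 (difference 1.70, exact p = 0.00794, adjusted p = 0.0119) with no overlap. Hprt stayed at 91.1 to 105 CPM in WT and 95.4 to 109 CPM in cKO. The lack of overlap and this p therefore follow from Xdh, which already did not overlap, so the ratio adds no test.

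Ratios between carriers were compared next. That of Slc28a2 to Slc29a1 was -0.80 ± 0.25 in WT and 0.08 ± 0.55 in cKO (difference 0.88), and that of Slc28a1 to Slc29a1 was -2.39 ± 1.18 and -0.07 ± 0.50 (difference 2.32), both without overlap (exact p = 0.00794 and adjusted p = 0.0119 for each). For Slc28a1 to Slc29a1 the lack of overlap and this p follow from the single genes, which already did not overlap in opposite directions, so the ratio adds no test. Slc28a2 on its own overlapped between genotypes and was not called, while Slc29a1 on its own did not overlap. Among the ecto-enzymes, Enpp3 to Nt5e rose from 2.26 ± 0.37 to 4.13 ± 0.38 (difference 1.87, exact p = 0.00794, adjusted p = 0.0119). Enpp3 on its own already did not overlap between genotypes, so this ratio is not separate evidence. For Nt5e to Entpd8 the difference was 0.06 (exact p = 0.897), with values of -3.56 to -2.16 in WT and -3.47 to -2.22 in cKO, and its sign turned without WT replicate 4 (-0.12) or cKO replicate 2 (-0.08), 4 (-0.03) or 5 (-0.02).

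Within WT, members and enterocyte markers were low and high in the same mice for some members. WT replicate 4, with the lowest marker sum, had the lowest WT level of 6 of the 9 members, the exceptions being Entpd8, Slc28a2 and Slc29a1. WT replicate 2, with the highest WT sum of 9027 TPM, had the highest WT level of 6 members. The cKO mice kept this order in some members only. Replicate 1 had a higher marker sum than replicate 2 (13524 against 12562 TPM). It had more Xdh (360 against 248 CPM), Slc28a1 (22.9 against 17.9 CPM), Entpd8 (48.8 against 39.6 CPM) and Pnp (114 against 90.7 CPM). It had less Ada (72.4 against 135 CPM), Enpp3 (58.0 against 129 CPM) and Slc28a2 (23.0 against 37.7 CPM). Nt5e and Slc29a1 were also lower in replicate 1. Replicate 5, at a sum of 17044 TPM, had Ada at 86.0 CPM. The marker sums of the 2 genotypes nearly met at WT replicate 2 and cKO replicate 3 (9117 TPM), a pair picked after the values were seen and too small for a test. Between these 2 mice Enpp3 was at 36.2 and 75.6 CPM, Xdh at 152 and 276 CPM and Slc28a1 at 17.4 and 22.4 CPM. Ada was at 77.5 and 85.0 CPM, Entpd8 at 39.3 and 37.6 CPM and Slc29a1 at 37.4 and 29.3 CPM. The part of enterocyte content in the members' differences was not tested.

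**Figure D4:**
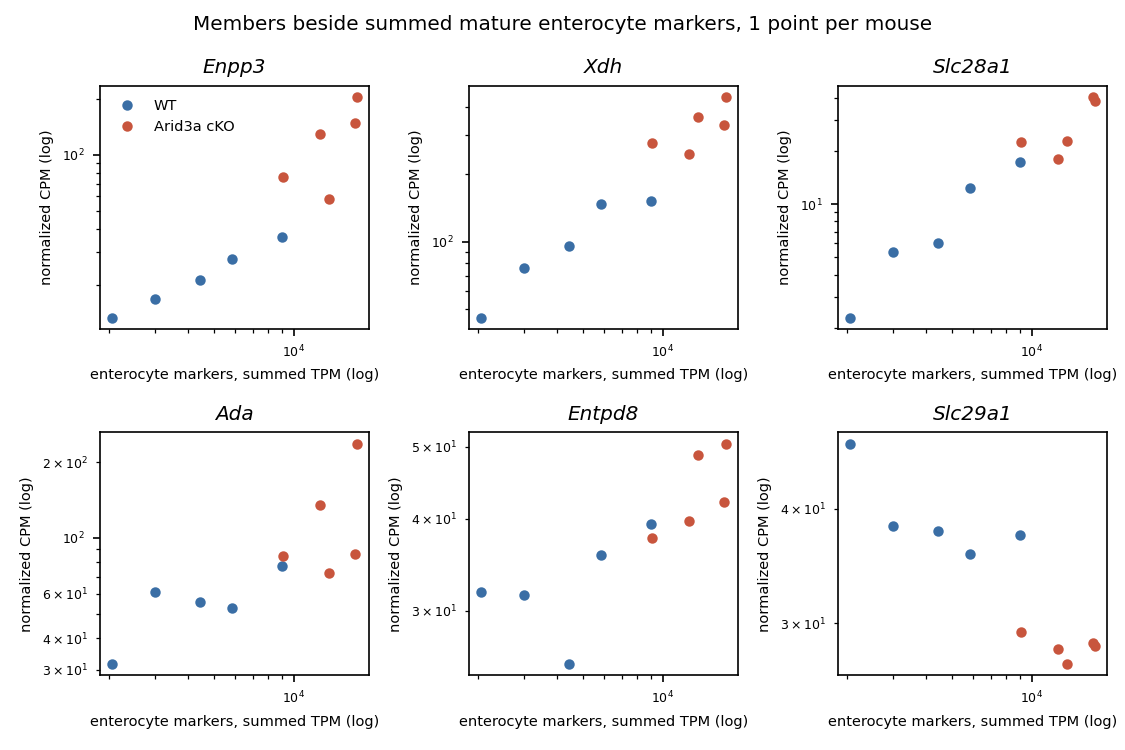
Normalized CPM of 6 members (vertical, log axis) against the summed TPM of 11 mature enterocyte markers (horizontal, log axis), 1 point per mouse, WT in blue and Arid3a cKO in red. All cKO mice lie to the right of all WT mice, and Slc29a1 runs from 47.1 CPM at the lowest sum to 27.04 to 29.3 CPM in the cKO mice. From cKO replicate 2 to replicate 1, Xdh, Slc28a1 and Entpd8 rise with the sum, while Ada, Enpp3 and Slc29a1 fall.

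The genes that tracked each member most closely over the 10 mice were found by Pearson correlation of log2 CPM among 11955 genes whose mean normalized count was 50 or more. These correlations pool both genotypes and rest on the same 10 libraries, so they are given as a description with no p. Nearest to Enpp3 were Cyp2j6, Cyp4b1 and Aqp3 (r = 0.98 for each), and nearest to Slc28a1 were the transporters Slc6a20a and Slc22a4 with Cmbl (r = 0.99 for each). Xdh ran with Ap5s1, Gm8909 and Btnl1 (r = 0.99 for each). Ada ran with Lsm14b (r = 0.94), Fam84a (r = 0.93) and Klf4 (r = 0.91), a transcription factor of the upper villus. The nearest to Slc29a1 were Mta2, Pprc1 and Ttpal (r = 0.98 for each), and to Pnp Rassf7, Vps28 and Hcfc1r1 (r = 0.98 for each). Entpd8 ran with Relb (r = 0.96), Scamp5 (r = 0.95) and Myo7b (r = 0.95), Slc28a2 with Ttr (r = 0.90), Pkp4 (r = 0.85) and Sez6l2 (r = 0.84), and Nt5e with Gm5831 (r = 0.91), Susd2 (r = 0.90) and Fam118a (r = 0.89).

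A list of 16 further genes, headed extracellular nucleotide breakdown, mixes surface enzymes with relatives that work in compartments inside the cell (Entpd4, Entpd5 and Entpd7 among them) and with the nucleotide receptors P2rx4, P2ry1 and P2ry2. Of these 16 genes 4 were called higher and 1 lower, so the count does not describe breakdown at the surface alone. Over all tested genes 15.6% were called higher and 12.7% lower, shares that also stand beside the lists below. The median log2 fold change of the 16 genes was 0.02, beside -0.03 over all tested genes. The called genes were the receptor P2ry1 (0.32, adjusted p = 0.00352), named here outside the naming rule after its value was seen, the nucleoside diphosphatase of the endoplasmic reticulum Entpd5 (1.17, SE 0.13, adjusted p = 0.000502), its relative Entpd7 (0.94, SE 0.12, adjusted p = 0.000735), Cd38 (0.20, adjusted p = 0.0401) and, lower, Entpd4 (-0.28, adjusted p = 0.0482). Of 17 genes of intracellular purine breakdown 12 were tested, 2 of them higher (Gda and Pnp2) and 3 lower (median -0.12). The lowest of those called were the AMP deaminase Ampd2 (-0.49, adjusted p = 0.00844) and the nucleotidase Nt5c3b (-0.48, adjusted p = 0.00269). Ampd1, Nt5c1a, Nt5c1b, Allc and Aox1 had at most 3 counts in every library.

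Transporters beyond the members gave 1 call, lower, and exporters 3, all higher. Over all tested genes 12.7% were called lower and 15.6% higher, and 1 call among 6 transporters is close to that share. Of 6 further nucleoside and nucleobase transporters 1 was called, Slc29a2, the carrier ENT2, which fell, as Slc29a1 did (-0.81, SE 0.19, adjusted p = 0.00840), whereas the concentrative carrier Slc28a3 (0.38, adjusted p = 0.144) and the lysosomal Slc29a3 (0.01, adjusted p = 0.959) were not called. Of 7 genes of urate and nucleotide export 6 were tested and 3 were higher (median 0.31). These were the urate carrier Slc2a9 (1.18, SE 0.29, adjusted p = 0.0143), the anion carrier Slc17a4 (0.57, SE 0.11, adjusted p = 0.00419) and Abcg2, which pumps urate into the gut lumen (0.57, SE 0.10, adjusted p = 0.00185). Slc22a12, the urate carrier of the kidney, had at most 3 counts in every library.

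Among genes that rebuild purines, most of those called were lower, and all but 1 of these were genes of de novo synthesis. Of 7 salvage genes 1 was called lower, Mtap (-0.51, adjusted p = 0.0386), while Hprt (0.08, adjusted p = 0.348), Aprt (0.19, adjusted p = 0.252) and Adk (0.04, adjusted p = 0.683) were not called (list median -0.02). That 1 call among 7 is close to the share of all tested genes called lower, 12.7%. Of 12 genes of de novo purine synthesis 9 were lower and 1 higher (median -0.32). The lower ones ran from Gart (-0.50, SE 0.09, adjusted p = 0.00291) and Impdh1 (-0.47, SE 0.11, adjusted p = 0.00886) to Gmps (-0.25, adjusted p = 0.0469), and the one that rose was Adss (0.27, SE 0.07, adjusted p = 0.00970). These synthesis genes fell beside the markers of stem and proliferating cells, whose list median was -0.38; their part was not tested.

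Pyrimidine breakdown and salvage, listed beside the purine genes, gave 5 higher and 2 lower of 9 tested (median 0.55). The phosphorylases Tymp (2.26, SE 0.38, adjusted p = 0.00306) and Upp1 (1.07, SE 0.26, adjusted p = 0.0141) rose most, and the kinases Uck2 (-0.33, adjusted p = 0.0103) and Tk1 (-0.32, adjusted p = 0.0476) fell. Of 4 adenosine receptors 3 were tested: Adora2b, the main receptor of intestinal epithelium, was higher (1.34, SE 0.28, adjusted p = 0.00558), Adora1 was lower (-0.84, SE 0.18, adjusted p = 0.00574) and Adora2a was not called (0.10, adjusted p = 0.796). Of 8 villus tip genes outside purine metabolism 6 were higher (median 0.80). Apoa4 (2.06, adjusted p = 0.0198) and Aspa (1.97, adjusted p = 0.0140) rose most, and the least of those called were Junb (0.47, adjusted p = 0.0157) and Klf4 (0.70, adjusted p = 0.00165). Apoa4 is also among the enterocyte markers above.

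**Figure D5:**
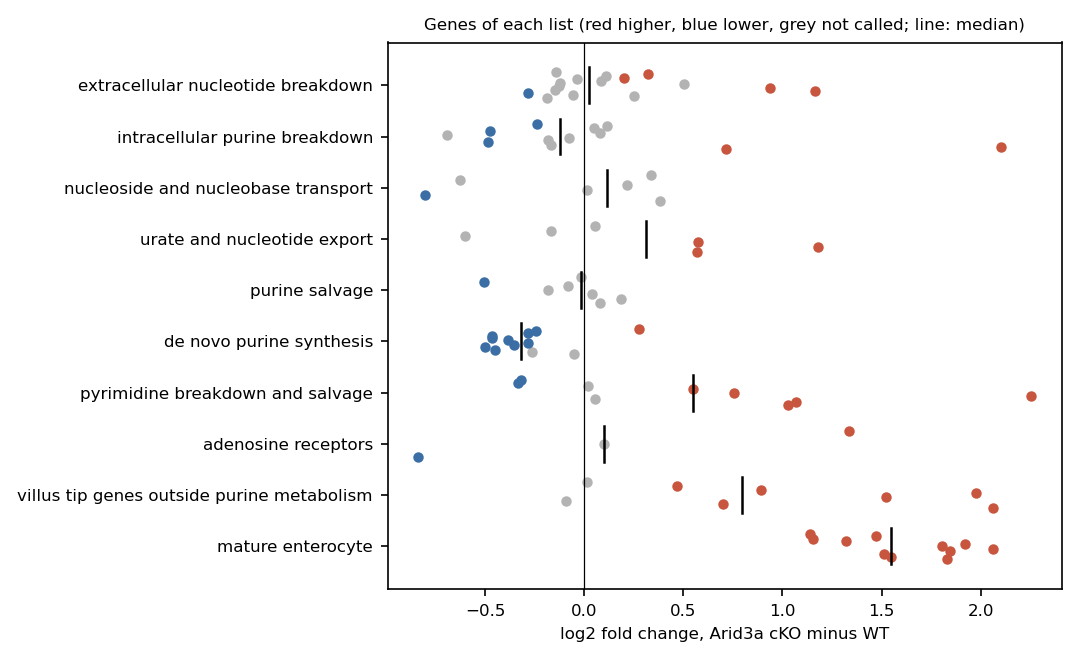
Log2 fold change (cKO minus WT) of each tested gene in the lists of purine and pyrimidine genes, the villus tip genes and the mature enterocyte markers, red where called higher, blue where called lower, grey where not called, with the list median as a black line. The medians run from -0.32 for de novo purine synthesis to 0.55 for pyrimidine genes and 1.55 for enterocyte markers.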

How the data were processed

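RNA of jejunal crypts, 1 library per mouse, was sequenced from polyadenylated RNA (KAPA mRNA HyperPrep), with an RNA integrity limit for use set by the authors. Per the labels and the study's methods, the authors aligned reads with STAR and estimated gene counts with RSEM (nf-core/rnaseq; GRCm38 with Ensembl genes). For each of 54838 genes they deposited an expected count (a non-whole estimate that divides reads matching several genes), TPM and FPKM (both scaled to depth and length by the authors), length and effective length. Strand setting was not given in the sources used here. FPKM values were not used. Genes with no symbol took 0.0193% of counts.

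Expected counts were rounded and fitted in R 4.3.3 with edgeR 4.0.16 (filterByExpr, minimum count 10 and total 15; TMM; robust quasi-likelihood test; Benjamini-Hochberg over 14719 genes; threshold 0.05). TMM factors were 1.00 to 1.08 in WT and 0.934 to 0.986 in cKO. The authors' DESeq2 model also held time, constant in these libraries. Groups came from the labels. Each mouse is 1 library, with 27050455 to 31053622 counts. Exact permutation tests were computed in Python 3.11.15 with numpy 2.4.6. Only the edgeR fit was tested on simulated data, with the same variability set for every gene.

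Members, lists, markers and tests were chosen with earlier results of these data known. Named from each list were all called genes if at most 4, otherwise the 2 highest and 2 lowest called, plus Pnp2, the paralog next to Slc28a2, Gda, Adk, Hprt, Aprt, Uox, Slc28a3, Slc29a2, Slc29a3, Abcg2, Adora2b and Arid3a, and for each member the 3 genes of most similar pattern. Marker lists covered enterocyte, stem, Paneth, goblet, enteroendocrine, tuft, T, B and plasma, myeloid, mast and stromal cells; 1 gene that the naming rule meets is not reported here. Shared 100-base words were counted among GENCODE vM21 transcripts (GRCm38).

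Alternatives were DESeq2 1.42.0, limma-voom (limma 3.58.1), RLE factors, unscaled library size, no filter on counts, a stricter filter of 10 counts in each sample, effective length as an offset, log2 TPM with 0.5 or 1 added (mean TPM of at least 0.5, or no filter), replicate number as a block, paralog counts summed, and each mouse left out. Leaving out WT replicates 3 and 4, with or without cKO replicate 4, was added after seeing the data.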

Additional observations from a re-analysis of the deposited data

Results flagged for a closer look

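Of 54 groups of 5 mice examined, 3 held a mouse far from the others by Dixon's ratio (95% critical value 0.71). The groups included, but were not limited to, members and marker sums in each genotype. Chance alone can give such a number among so many groups. Slc29a1 stood at 47.1 CPM in WT replicate 4, against 35.7 to 38.3 CPM in the other WT mice. In cKO replicate 4 the macrophage and myeloid markers summed to 97.8 TPM, against 10.5 to 29.0 TPM in the other cKO mice, and the stromal, endothelial and muscle markers to 51.0 TPM, against 4.09 to 12.6 TPM. That mouse also had the highest cKO level of 6 of the 9 members, namely Ada, Nt5e, Slc28a2, Enpp3, Xdh and Entpd8. The part of these cells in those levels was not tested. Without cKO replicate 4 alone, Ada and Slc28a1 lost their calls (log2 fold changes 0.77 and 1.58), as did Entpd8 (0.36).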

How the results depend on the processing

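Enpp3, Xdh and Slc29a1 kept their direction and call in all 22 other settings listed in the methods and in both added ones. Nt5e and Slc28a2 passed in none of them. With library size only, the median of all tested genes moved from -0.03 to -0.16 (log2). The lowest libraries held 67 counts for Nt5e and 68 for Slc28a1, where counting error is larger than for Ada with at least 939.

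Genes called lower over all tested numbered 4030 with library size only and 1188 under the replicate block; 1400, 1398 and 1144 were higher on log2 TPM (0.5 added, 1 added, 0.5 without filter). Without WT replicates 3 and 4 the counts were 1472 higher and 670 lower, and without cKO replicate 4 as well 1133 and 475. With 1 mouse left out they were 1760 to 2572 higher and 1131 to 2112 lower (1131 without WT replicate 4). Members called higher numbered 3 with library size only, on TPM without filter, with no count filter and under the block, 2 under both added settings, and 2 to 6 with 1 mouse left out (2 without cKO replicate 4).

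The labels do not say that replicate numbers pair the mice. Same-number correlations of deviations from the group means were -0.20 to 0.10, which cannot settle whether the numbers pair mice. Under the replicate block Ada was 1.02 (adjusted p = 0.161) and Slc28a1 1.90 (adjusted p = 0.114), both no longer called. Ada was also lost with library size only (1.03), TPM without filter (0.95), no count filter (1.15) and the 2 added settings (0.99 and 0.61), and ranged over 0.77 to 1.30 with 1 mouse left out. Slc28a1 was lost with no count filter (1.70) and in the added settings (1.25 and 1.11), ranging over 1.46 to 2.12. Entpd8 was lost with library size only (0.29), on TPM (0.26 with or without filter, 0.25 with 1 added) and in the added settings (0.39 and 0.33), ranging over 0.35 to 0.49. Pnp passed with Pnp2 summed (0.35), ranging over 0.15 to 0.28. The cause was not tested, except that the added settings have fewer mice.

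List medians moved as follows. With library size only they were -0.11 for extracellular breakdown, -0.25 for intracellular breakdown, -0.018 for transport, -0.15 for salvage and 0.073 for tuft. On TPM (0.5 added, 1 added) intracellular breakdown was -0.22 and -0.22, salvage -0.11 in all 3 forms, and tuft 0.026 and 0.025, or 0.065 without filter. With effective length as an offset extracellular breakdown was 0.18 and adenosine receptors 0.43. Without WT replicates 3 and 4 extracellular breakdown was 0.13; without cKO replicate 4 as well, pyrimidine genes were 0.28, adenosine receptors -0.24 and stromal markers -1.59. Stromal markers ranged over -1.65 (without cKO replicate 4) to -0.36 with 1 mouse left out. The ratio of Ada to Adk ranged over 0.70 to 1.17 and that of Nt5e to Entpd8 over -0.12 to 0.24.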

Other observations

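The remaining marker lists, and the called genes of some lists described above, follow. Over all tested genes, 15.6% were called higher and 12.7% lower. None of the 5 goblet cell markers was called (median log2 fold change 0.10), nor either of the 2 mast cell markers tested (0.07). Of 5 enteroendocrine markers 2 were higher, Chga (0.42, adjusted p = 0.0486) and Chgb (0.43, adjusted p = 0.0130). Of 3 tuft cell markers tested 2 were higher, Dclk1 (0.20, adjusted p = 0.0350) and Trpm5 (0.25, adjusted p = 0.0270). The 1 called of 5 B and plasma cell markers, all with negative log2 fold changes (-2.23 to -1.46), was Jchain (-1.95, adjusted p = 0.00196). Of 6 myeloid markers 2 were lower, C1qa (-1.28, adjusted p = 0.0297) and C1qb (-1.46, adjusted p = 0.0312), and of 8 stromal markers tested 2 were lower, Pecam1 (-1.19, adjusted p = 0.00984) and Acta2 (-1.59, adjusted p = 0.0455).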
